A study of Mus musculus and Homo sapiens with 9 samples.

Results

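The baseline transcriptome of control splenic CD3+ T cells was described from RNA sequencing of 3 libraries, out of 9 samples in the series. The 3 libraries were chosen by their label as wild-type controls, with no use of measured values, and they are called libraries 1, 2 and 3 after their replicate numbers. The study asked what loss of the transcription cofactor IRF2BP2 does in T cell leukaemia lines and in normal mouse T cells. The libraries described here come from mice whose genotype is labelled wild type and which the methods give as Vav-iCre-/-;Irf2bp2 fl/fl. These mice carry both floxed alleles of Irf2bp2, and they lack the Cre transgene (driven by the Vav promoter of blood cells) that would delete them. Mice of this cross were described as sacrificed at 6 weeks for flow cytometry, and CD3+ cells were sorted magnetically from spleen. Neither the labels nor the methods say whether each library came from 1 mouse or from pooled mice, so the spread given below is that between these 3 samples and may be partly technical.

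CD3 is the signalling complex that every mature T cell carries with its antigen receptor, so a CD3+ sort takes CD4 helper, CD8 cytotoxic, regulatory and unconventional T cells together. In the spleen of a young unchallenged mouse most T cells are naive. They recirculate between blood and lymphoid tissue under the control of factors such as TCF7, LEF1, KLF2 and FOXO1, and they carry homing molecules such as CCR7 and S1PR1. Effector and memory cells replace part of this program with granzymes, chemokines and cytokine genes. The spleen also holds B cells, plasma cells, red pulp macrophages, granulocytes and red cell precursors, and lists of their marker genes were read beside those of T cells.

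The 3 libraries held 37079690, 36460971 and 16645570 counts over annotated genes, so library 3 was the shallowest. A count of 0 allowed up to 0.0794, 0.0815 and 0.186 CPM in them, an upper limit set at 3 counts that covers counting error only. CPM, the usual depth-scaled count of a gene, compares the same gene across libraries. TPM, the usual transcript level scaled by both gene length and depth, compares different genes. Wherever 3 values stand in a row they are those of libraries 1, 2 and 3. A total of 10351 of 21551 protein-coding genes reached 1 TPM in all 3 libraries, and 6775 had 0 counts in all 3. Pearson correlations of log2 CPM were 0.975 between libraries 1 and 2, 0.980 between 1 and 3 and 0.961 between 2 and 3. Libraries 2 and 3 were thus the least alike, and the differences were far above counting noise, with a chi-square per degree of freedom of 63.9. Xist, the RNA that coats the inactive X chromosome of female cells, had 0 counts in all 3 libraries, whereas the Y-linked helicase gene Ddx3y had 97.2, 122 and 146 TPM.

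The most abundant protein-coding transcripts were those of respiration, translation, antigen display and the cytoskeleton. Among the 20 protein-coding genes with the highest mean TPM, 9 lie on the mitochondrial genome and 6 encode ribosomal proteins. The respiratory subunit gene mt-Co1 led with 22236, 23202 and 21227 TPM. The translation elongation factor gene Eef1a1 was the highest nuclear protein-coding gene, with 15653, 13168 and 17256 TPM. B2m, the light chain of MHC class I, had 7676, 9289.7 and 7461 TPM, and it headed the order once mitochondrial and translation genes were left aside. The actin-binding thymosin genes Tmsb4x and Tmsb10 had 5774 ± 789.7 TPM and 4278 ± 215 TPM (mean ± SD, n = 3), and the MHC class I heavy chain genes H2-K1 and H2-D1 had 3627 ± 99.7 TPM and 2617 ± 130.1 TPM. Tcf7, with 1518, 1721 and 1691 TPM, was the highest transcription factor gene of all lists described here and stood among the 20 most abundant genes outside mitochondria and translation. Coro1a, an actin regulator of leukocytes, was the steadiest of these genes, with 1745, 1733 and 1798 TPM. Mitochondrial genes took 3.63, 4.14 and 2.84% of the counts, ribosomal protein genes 9.84, 10.5 and 8.44%, and the 100 most counted genes 21.5, 22.6 and 19.8%.

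Part of the mitochondrial signal was listed under nuclear pseudogenes. Gm10925, a nuclear copy of the ATP synthase subunit gene mt-Atp6, had 0.994, 1.01 and 1.02 times the counts of mt-Atp6, and its 678 annotated bases were identical to it. Gm28661, a copy of mt-Co2, had 1.03, 1.03 and 0.988 times the counts of mt-Co2 and was identical to it over 681 bases. Reads of such copies cannot be assigned, so the levels of these mitochondrial genes are uncertain by about the share of their copies. Gm10925, Gm28661, Gm29216 and Gm28437 together took 1.04, 1.33 and 0.793% of the counts.

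All 22 genes of the T cell receptor complex and pan-T list were at or above 1 TPM in every library. Of the CD3 chain genes, Cd3d was the highest at 575, 658 and 511 TPM. Cd3g had 418, 426 and 371 TPM and Cd3e had 227, 283 and 282 TPM. Cd247, which encodes the zeta signalling chain, was lower at 168, 179 and 194 TPM, and its range lay below those of all CD3 chain genes. Lck, the kinase that starts receptor signalling, had 856, 987 and 1020.4 TPM. Zap70, the kinase recruited next, had 221, 242 and 249.9 TPM. Both kinase genes were lowest in library 1, by a small margin. The surface glycoprotein genes Thy1, Cd2 and Cd5 had means of 867 ± 96.8 TPM, 531 ± 18.1 TPM and 200.1 ± 18.9 TPM, and the costimulatory receptor gene Cd28 had 112 ± 10.9 TPM. None of the 22 genes differed by 2-fold or more between its highest and its lowest library, against 6.77% of all genes of at least 10 CPM. Their median ratio of highest to lowest library was 1.246, beside 1.30 over all such genes.

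The receptor constant regions Trac, Trbc1 and Trbc2 were higher than any CD3 chain gene in every library. Trac, the alpha constant gene, had 1179, 1475 and 1066 TPM. Trbc2 exceeded Trbc1 in every library, with 3909, 4763 and 3379 TPM against 2091, 2307 and 1816 TPM, a ratio of 1.87, 2.06 and 1.86. Both encode the constant part of the receptor beta chain, and an individual beta chain uses either one. Their transcripts were 96.2% identical over 502 aligned bases, so part of the reads fits both and the ratio is uncertain. The stretch of 100 coding bases in exon 3 of each gene where they differ most is shown because it is the kind of sequence that lets a read tell the 2 genes apart. Trbc1 was read at chr6:41539233-41539332 and Trbc2 at chr6:41547776-41547875 on the plus strand of GRCm38, and the 15 bases that differ are in capitals.
Trbc1: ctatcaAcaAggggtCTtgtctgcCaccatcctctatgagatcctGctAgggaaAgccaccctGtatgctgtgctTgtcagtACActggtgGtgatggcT
Trbc2: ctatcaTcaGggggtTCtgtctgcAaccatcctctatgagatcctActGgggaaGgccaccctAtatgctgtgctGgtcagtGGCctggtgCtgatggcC

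Genes of both major lineages were expressed, with more CD8 than CD4 co-receptor RNA. Cd4, at chr6:124864692-124888221 on GRCm38, had 311, 279 and 398 TPM. Cd8a, at chr6:71373427-71379173, had 461, 416 and 529 TPM. Its neighbour Cd8b1, at chr6:71322788-71337494, encodes the beta chain found on conventional CD8 T cells and had 846, 836 and 1026 TPM. All 3 genes were highest in library 3 in TPM. The level of Cd4 relative to Cd8a was 0.675, 0.672 and 0.752, a mean of 0.6997 ± 0.0456 (SD, n = 3), and Cd4 lay below Cd8a in all 3 libraries. With merged exon lengths, the ranges of Cd4 and Cd8a over libraries did not overlap, at 279 to 398 TPM and 416 to 529 TPM. With the longest transcript as gene length the mean ratio was nearer 1, at 0.781. Whether the ranges stay apart in that setting was not examined. In bulk RNA, fewer cells of a type and less RNA per cell cannot be told apart, so this ratio is not a ratio of cells. Zbtb7b (ThPOK), the factor that sets the CD4 fate, had 60.2, 72.8 and 87.1 TPM. Runx3, the factor of the CD8 fate, had 44.1, 55.5 and 80.1 TPM, and the ranges of these factors overlapped. Cd40lg, the ligand by which helper cells activate B cells, had 92.8, 92.5 and 142 TPM and was highest in library 3. Icos, a costimulatory receptor of helper cells, was even across libraries at 53.1, 53.6 and 50.5 TPM. Eomes, a factor of memory CD8 cells and of NK cells, had 40.3, 29.0 and 39.4 TPM, and Crtam, a surface molecule of cytotoxic cells, had 17.7, 10.2 and 14.8 TPM. None of the 6 CD4 lineage genes and none of the 5 CD8 lineage genes differed by 2-fold among the libraries, beside 6.77% of all genes. Their median ratios of highest to lowest library, 1.38 and 1.31, were not below the 1.30 of all genes.

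Regulatory T cell genes were detected in every library. Foxp3, at chrX:7573644-7595245, the factor that defines regulatory T cells, had 30.5, 41.2 and 43.6 TPM, lowest in library 1. Its level relative to Cd4 was 0.0980, 0.148 and 0.110. Il2ra, the alpha chain of the high-affinity IL-2 receptor (CD25), had 27.3, 18.1 and 28.8 TPM, and Ctla4, an inhibitory receptor, had 46.9, 44.2 and 64.9 TPM. Izumo1r, the folate receptor 4 gene, led the list at 116, 135 and 108 TPM, and Tnfrsf18 (GITR) followed at 85.8, 88.4 and 69.6 TPM. Ikzf2 (Helios) had 15.1, 11.04 and 20.6 TPM and Nrp1 10.1, 6.53 and 9.27 TPM. All 11 genes of the list reached 1 TPM in every library, and their summed level was 422, 431 and 432 TPM. None of the 11 differed by 2-fold, beside 6.77% of all genes, and their median ratio of highest to lowest library was 1.42, above the 1.30 of all genes. Some of these genes, Il2ra and Ctla4 among them, are also used by activated conventional T cells.

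**Figure D1:**
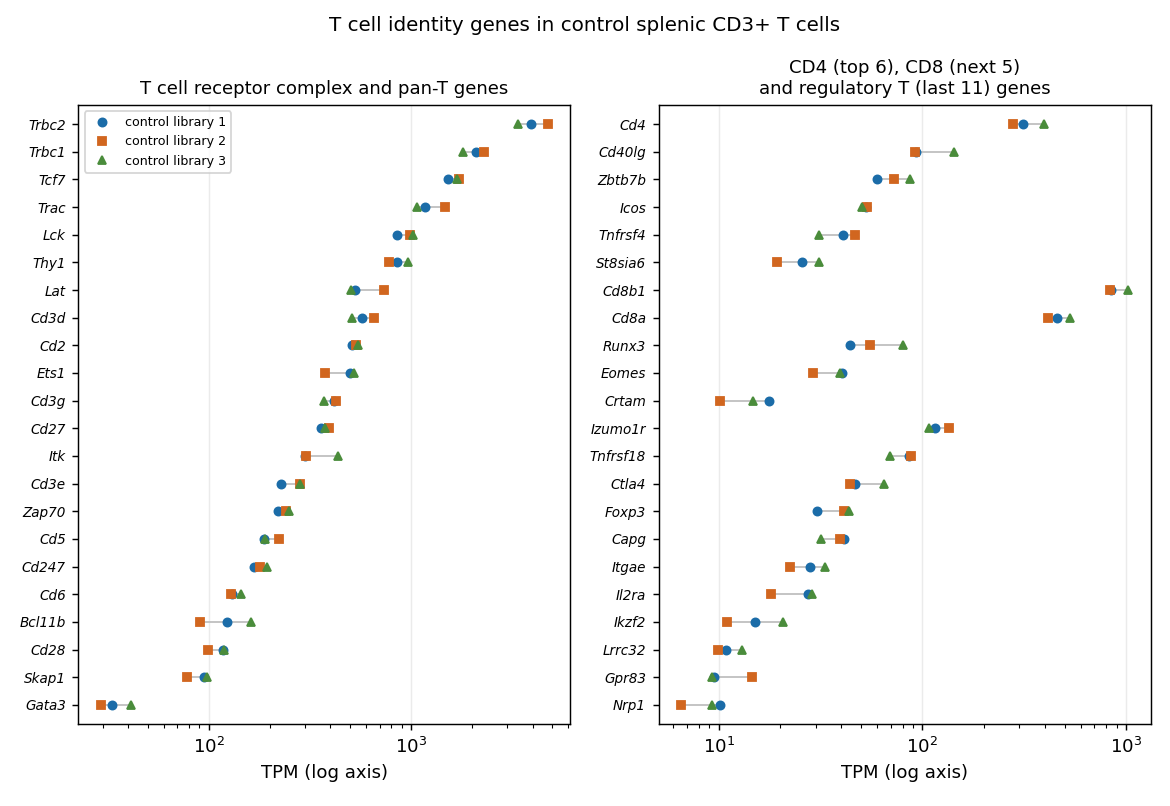
TPM (log axis) of the T cell receptor complex and pan-T genes (left) and of the CD4, CD8 and regulatory T cell genes (right) in the 3 control libraries, 1 point per library, with a grey line from the lowest to the highest. The spread of a gene over libraries is small beside the full range of levels in each panel, but the ranges of many genes of similar level overlap. Cd8a and Cd8b1 lie above Cd4 in every library.

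Genes of unconventional T cells and of immature thymocytes were mostly low. Cxcr6, a chemokine receptor gene of innate-like and of resident memory T cells, was the highest of the former, at 79.0, 72.9 and 70.1 TPM. The gamma constant gene Tcrg-C2 had 22.1, 25.7 and 20.4 TPM. Tcrg-C1 had 17.3, 26.2 and 15.4 TPM and Tcrg-C4 had 15.6, 12.4 and 13.9 TPM. Trac, at 1239.9 ± 211 TPM, was far above each of these gamma constant genes. The delta constant gene Trdc was also listed but could not be matched to an annotated gene. It has no level here, and 8 of the 9 listed genes of unconventional T cells were read. Zbtb16 (PLZF), the factor of natural killer T cells, had 1.02, 0.447 and 0.910 TPM, and Sox13, a factor of gamma delta cells, had 46, 115 and 14 counts. Blk, a kinase used by some gamma delta cells and also by B cells, had 10.3, 18.4 and 3.22 TPM and followed the B cell genes described below in being highest in library 2 and lowest in library 3. Of the 8 thymocyte stage genes, 4 were under 1 TPM in all 3 libraries. The recombinase genes were close to absent, with 7, 14 and 6 counts of Rag1 and 0, 0 and 0 counts of Rag2. Ptcra, the pre-T cell receptor chain, had 0, 2 and 0 counts. Dntt, which encodes the enzyme that adds bases at receptor joints during recombination, was well above them, at 12.3, 9.44 and 11.8 TPM from 383, 302 and 146 counts, at about the same level in all 3 libraries. Cd1d1, which is also expressed outside the thymus, had 62.3, 40.6 and 55.7 TPM.

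Genes of the naive state were higher than those of effector cells. All 16 naive and central memory genes reached at least 26.5 TPM in every library, and 13 of them had a mean of at least 100 TPM. Of the 25 effector, memory and cytotoxic genes, 6 had such a mean and 6 had a mean under 10 TPM. The summed level of the naive list was 5652, 5209.7 and 5997 TPM and that of the effector list 2037, 1686 and 1736 TPM, a ratio of 2.78, 3.09 and 3.46. The median gene of the naive list had 232 TPM and the median gene of the effector list 25.8 TPM.

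Among the naive genes, Tcf7, at chr11:52252371-52283014, stood alone at the top, and its range over libraries did not overlap that of the next gene. The homing receptor gene Ccr7 had 512, 452 and 466 TPM, highest in library 1 by little. S1pr1, which lets T cells leave lymphoid organs, had 402, 319 and 449 TPM. Klf2, the factor that drives S1pr1, had 558, 459 and 725 TPM. Il7r, the receptor chain for the survival cytokine IL-7, had 516, 459 and 366 TPM. From Klf2 down to Lef1, each gene of the list overlapped the next in its range over libraries, so their order is not resolved. Lef1 itself was among the most even genes, at 173, 169 and 185 TPM, with a ratio of 1.04 between its highest and lowest CPM. Satb1, a chromatin organiser of T cells, had 101, 101 and 119.9 TPM. Foxo1, which sustains Il7r, had 102, 78.7 and 126 TPM. Bach2, which holds back effector differentiation, had 34.3, 26.5 and 48.1 TPM. Both were lowest in library 2. Bcl2, the survival gene, was the exception in evenness. It had 72.4, 27.9 and 80.8 TPM, so library 2 was low, and it was the one naive gene of 16 to differ by 2-fold, at 2.56-fold in CPM, beside 6.77% of all genes.

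The effector list was carried by a few genes. Nkg7, a granule protein of cytotoxic cells, had 341, 340.2 and 348 TPM and, after Prf1, the narrowest spread in CPM of the list. Ccl5, a chemokine stored by memory CD8 cells, had 274, 217 and 249 TPM. Klrd1 (CD94), an NK-type receptor, had 257, 204 and 161 TPM, lowest in library 3. Ly6c2 had 243, 172 and 205 TPM. Il2rb, the beta chain of the IL-2 and IL-15 receptors, had 169, 139.5 and 195 TPM. These genes are known from memory CD8 cells as well as from NK cells. The perforin gene Prf1 had 59.3, 56.3 and 66.3 TPM. The granzyme gene Gzma had 68.4, 64.1 and 27.4 TPM and Gzmb had 17.4, 21.1 and 10.2 TPM. Library 3 was the lowest for both granzymes and the highest for perforin in TPM. Gzmk, the granzyme of early memory cells, had 16.3, 6.86 and 8.78 TPM. Ifng had 5.82, 4.26 and 10.8 TPM from 102, 77 and 76 counts, and Klrg1, a marker of terminally differentiated cells, had 8.83, 6.84 and 3.79 TPM. Cd44, whose protein separates naive from memory cells, had 40.1, 33.4 and 32.6 TPM. The factors of effector fate were ordered Id2, Tbx21 (T-bet), Prdm1 (Blimp-1) and Zeb2, at 86.2 ± 12.03 TPM, 24.6 ± 3.401 TPM, 5.40 ± 1.43 TPM and 1.31 ± 0.283 TPM, and no range of this order overlapped the next. Of the 17 effector genes with a mean of at least 10 CPM, 3 differed by 2-fold or more, namely Gzma, S100a4 and Ccr2, beside 6.77% of all genes. S100a4 had 58.1, 66.5 and 25.9 TPM and Ccr2, a chemokine receptor shared with monocytes, 9.27, 15.7 and 7.14 TPM. All 3 were lowest in library 3. In CPM, 10 of 12 NK cell genes and 18 of 18 monocyte and macrophage genes were also lowest in library 3. These counts include Gzma, which is on the NK cell list, and Ccr2, which is on the monocyte and macrophage list. The part of NK and myeloid cells in these levels was not tested.

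**Figure D2:**
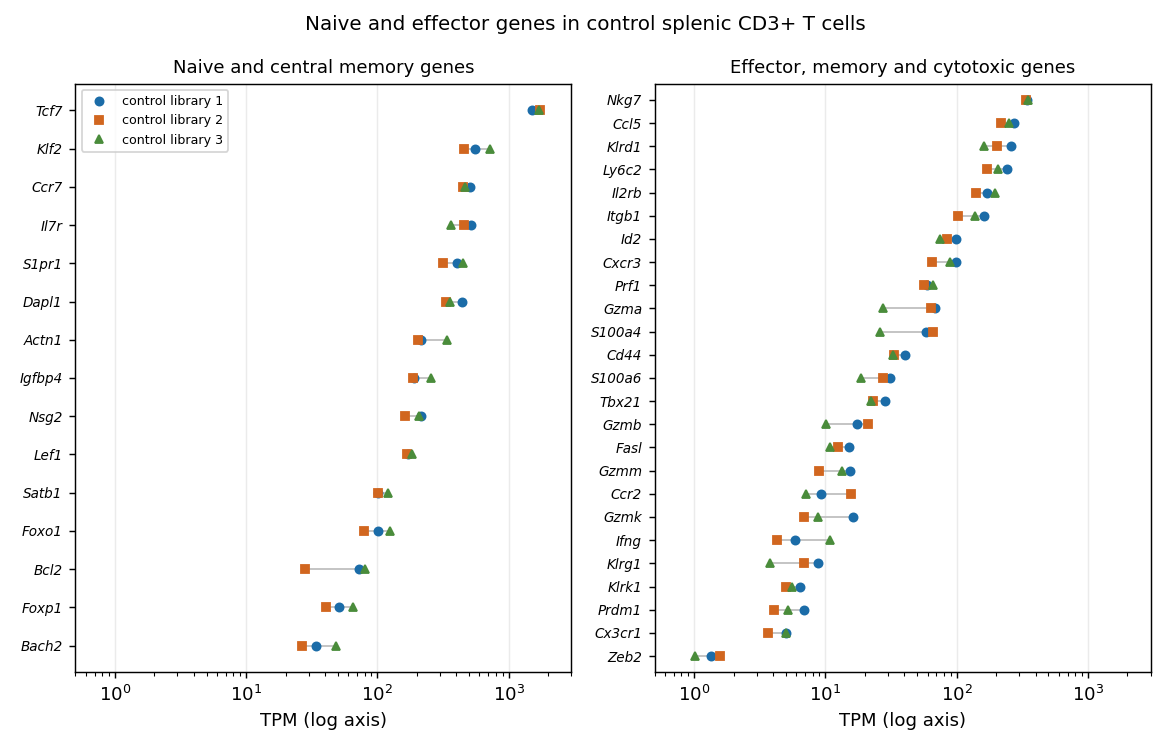
TPM (log axis) of the naive and central memory genes (left) and of the effector, memory and cytotoxic genes (right), ordered by mean, 1 point per control library and a grey line over their range; 1 of the 16 naive genes is not shown. The naive genes shown lie between 26.5 and 1721 TPM, while the effector genes reach down to 1.02 TPM.

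The transcription factors of all T cell lists fell into wide steps at the top and an unresolved middle. Tcf7 at 1643 ± 109.9 TPM was followed by Klf2 at 581 ± 134 TPM and Ets1 at 466 ± 78.6 TPM, whose ranges overlapped each other and no other factor's. Lef1 came next at 175 ± 8.37 TPM. Bcl11b, the factor that keeps T cell identity, Satb1, Foxo1, Id2, Zbtb7b, Runx3, Foxp1, Foxp3, Bach2, Eomes and Gata3 then formed a chain from 125 down to 34.7 TPM in which every neighbour overlapped the next. Tbx21 and the exhaustion-related factor Tox were equal within their spread, at 24.6 ± 3.401 TPM and 24.4 ± 1.85 TPM. Bcl6, the factor of follicular helper cells, had 10.4, 15.4 and 8.74 TPM, and Maf 14.7, 12.04 and 13.8 TPM. Among surface receptors, Cd8b1, Thy1 and the common cytokine receptor chain gene Il2rg led at 903 ± 107 TPM, 867 ± 96.8 TPM and 822 ± 62.2 TPM. In that order of 43 receptors, 40 of 42 neighbouring pairs overlapped.

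Helper cytokine genes, most of which are known to be transcribed after stimulation, were close to 0. Il13 and Il22 had 0 counts in all 3 libraries. Il17a had 0, 5 and 0 counts, Il5 4, 0 and 0 counts and Csf2 9, 11 and 0 counts. Il4 had 14, 17 and 11 counts and Il2, the growth factor made by activated T cells, had 32, 31 and 4 counts, which come to 2.07, 1.94 and 0.646 TPM. Tnf was the highest cytokine gene of the list, at 31.7, 28.9 and 14.2 TPM. Cxcr5, the receptor that draws follicular helper cells and B cells into follicles, had 34.0, 27.6 and 24.5 TPM. Of the 19 genes, 7 stayed under 1 TPM in every library. All 9 checkpoint genes were detected above 1 TPM in every library, led by the inhibitory receptors Vsir (VISTA) at 182, 154 and 226 TPM and Btla at 123, 98.4 and 94.7 TPM. Tigit had 33.2, 26.5 and 18.5 TPM, Pdcd1 (PD-1) had 22.8, 18.6 and 13.6 TPM and Lag3 had 10.8, 9.85 and 9.64 TPM. These inhibitory receptor genes were lowest in library 3 in TPM and below Btla in every library. Havcr2 (TIM-3), also a gene of myeloid cells, had 2.12, 2.97 and 1.09 TPM.

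Cytokine receptor and signalling genes were plentiful, and their spread was about that of all genes, with a median ratio of highest to lowest library of 1.31 beside 1.30. All 23 reached 1 TPM in every library, and 13 had means of at least 100 TPM. Il2rg had 784, 789.5 and 894 TPM, and the kinase gene Jak1 had 427, 349 and 495 TPM. The signal transducer gene Stat5b had 113, 102 and 129 TPM. It was steady, with a ratio of 1.11 between highest and lowest CPM. Il6ra, the IL-6 receptor, was the 1 gene of this list that differed by 2-fold or more, with 55.7, 24.7 and 88.1 TPM and a 3.14-fold range in CPM. Among homing genes, the integrin chain gene Itgb7 had 674, 574 and 809 TPM and Itgb2 had 499, 559 and 556 TPM. Selplg, the selectin ligand, had 325, 378 and 359.5 TPM. Cxcr4, the receptor for the marrow chemokine CXCL12, varied most, with 230.4, 435 and 158 TPM and a range of 3.11-fold in CPM, highest in library 2.

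The gene that the study targets elsewhere was expressed in all 3 controls. Irf2bp2 had 60.3, 64.8 and 69.7 TPM, a mean of 64.9 ± 4.70 TPM (SD, n = 3), with a 1.14-fold range in CPM. Its relative Irf2bpl had 80.4, 68.4 and 84.9 TPM and Irf2bp1 had 46.9, 51.4 and 54.0 TPM. The ranges of Irf2bp2 and Irf2bpl overlapped, and that of Irf2bp1 lay below both. Irf2, the interferon regulatory factor for which the family is named, had 36.4, 45.5 and 50.5 TPM. Nfatc2, a calcium-dependent factor of T cell activation, had 22.7, 23.8 and 37.2 TPM. Vgll4, a transcription cofactor, had 31.4, 25.6 and 47.4 TPM. Both were highest in library 3. None of the 6 genes differed by 2-fold, beside 6.77% of all genes, and their median ratio of highest to lowest library was 1.24.

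Proliferation genes were detected in all libraries. The 20 S phase genes summed to 691, 789 and 674 TPM, led by Pcna, the sliding clamp of DNA polymerase, at 171, 220.4 and 172 TPM. Mcm6, a subunit of the replicative helicase, was even at 65.4, 64.7 and 75.7 TPM. The 20 G2 and mitosis genes summed to 172, 236 and 109 TPM. All 20 of them were lowest in library 3 and 19 were highest in library 2 in CPM. Mki67, the Ki-67 antigen of cycling cells, had 18.6, 20.1 and 13.5 TPM. Top2a, which untangles replicated DNA, had 17.7, 20.9 and 12.9 TPM, and the cyclin gene Ccnb2 had 13.99, 26.8 and 7.24 TPM. The order of the libraries was that of the B cell, macrophage and neutrophil genes below, and from which cells the mitotic RNA came was not tested.

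Interferon-stimulated genes were expressed in every library. All 26 exceeded 1 TPM in every library, their sum was 1327, 1501 and 1489 TPM, and none of the 25 with a mean of at least 10 CPM differed by 2-fold, beside 6.77% of all genes. Their median ratio of highest to lowest library was 1.33, beside 1.30 over all genes. Isg15, a ubiquitin-like modifier, had 49.2, 63.5 and 50.1 TPM. Ifit1, which binds foreign RNA ends, had 32.2, 37.3 and 36.1 TPM, and Usp18, which removes ISG15 and damps the receptor, had 40.2, 41.9 and 45.2 TPM. Bst2 (tetherin) had 164, 259 and 185 TPM, and Oas2 had the widest range, 1.96-fold. The 150 bases before the annotated starts of Isg15 and Ifit1 are shown because both hold repeats of the interferon-stimulated response element, searched as GAAANNGAA on both strands with overlapping matches allowed. The sequences are those of RefSeq on GRCm38.p6, Isg15 at chr4:156200819-156200968 on the minus strand and Ifit1 at chr19:34640739-34640888 on the plus strand, and the matches are in capitals.
Isg15: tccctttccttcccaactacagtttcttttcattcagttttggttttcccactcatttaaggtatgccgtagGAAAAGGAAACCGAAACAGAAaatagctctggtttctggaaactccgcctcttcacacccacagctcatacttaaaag
Ifit1: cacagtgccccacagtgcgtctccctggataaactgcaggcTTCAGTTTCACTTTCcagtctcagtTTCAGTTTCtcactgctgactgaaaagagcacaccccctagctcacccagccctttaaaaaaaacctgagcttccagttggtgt

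Each of these windows held 3 matches. Of the 19 listed genes with a promoter in the table, 9 held at least 1 match in the 150 bases before a start, whereas 4.61% of 27025 genes in the table did. A match is a description of the letters and not a bound site.

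RNA of other spleen cells was present in all 3 libraries, in different amounts and mixtures. Counts of immunoglobulin genes made up 1.01, 0.530 and 0.519% of each library, T cell receptor genes 0.282, 0.328 and 0.226%, and the 4 adult globin genes 0.217, 0.114 and 0.0535%. The plasma cell, erythroid and B cell lists had the highest sums, and the neutrophil list differed most between libraries.

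B cell genes were highest in library 2 and lowest in library 3. Cd79a, a signalling chain of the B cell receptor, had 61.7, 110.3 and 10.9 TPM, and its partner Cd79b had 65.5, 114 and 27.0 TPM. Ms4a1 (CD20) had 9.55, 17.0 and 1.31 TPM. In each of these genes library 3 was well below libraries 1 and 2. The level of Cd79a relative to Cd3e was 0.272, 0.390 and 0.0386. All 17 B cell genes were lowest in library 3 in CPM, and 14 were highest in library 2. Cd74, the invariant chain of MHC class II that all antigen-presenting cells share, had 425, 823 and 124 TPM. Ighm was less uneven than the other B cell genes, at 2549, 2661 and 1879 TPM. Its level was far above that of Cd79a in every library, and plasma cells also transcribe it. The summed list gave 3414, 4208 and 2114 TPM and, without Ighm, 865, 1547 and 235 TPM.

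Plasma cell RNA was ordered differently, with library 1 the highest. Igha, the IgA heavy chain gene, had 3593, 829 and 1929 TPM, and Jchain, which joins IgA and IgM units, had 1119, 317 and 536 TPM. Igkc, the kappa light chain, had 9183, 4789 and 4779 TPM, above every T cell receptor constant gene in all 3 libraries. Counts of Igha relative to Ighm were 1.99, 0.441 and 1.45, so Igha exceeded Ighm in libraries 1 and 3 and lay below it in library 2. Of the 14 genes, 13 were highest in library 1. Xbp1 and Irf4, which T cells also express, had smaller ranges, at 70.1, 60.7 and 49.7 TPM and 15.3, 10.95 and 10.4 TPM. Sdc1 (CD138), a defining surface marker, had 6.11, 2.88 and 3.30 TPM.

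Myeloid genes separated the libraries most. S100a9, a calcium-binding protein gene of neutrophils, had 460, 2125 and 2 counts, or 65.1, 292 and 0.708 TPM. Its partner S100a8 had 253, 1441 and 2 counts, or 26.9, 149 and 0.533 TPM. Library 2 was 467-fold above library 3 for S100a9, with a 95% counting interval of 129 to 3855 (exact binomial), since library 3 held 2 counts. Ngp, another granule protein gene, had 156, 1222 and 2 counts, and Camp, the cathelicidin gene, had 15, 195 and 0 counts. Ly6g, the classical neutrophil marker, had 0, 10 and 0 counts. All 13 neutrophil genes were highest in library 2, and the list summed to 136, 683 and 10.8 TPM. Basophil genes followed the same order at the top, with Mcpt8 at 47, 715 and 12 counts and Prss34 at 113, 1348 and 12 counts, and all 8 genes of that list were highest in library 2.

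Macrophage genes were lowest in library 3 without exception, in 18 of 18 genes. The complement gene C1qa had 59.0, 87.6 and 20.3 TPM and C1qb had 71.7, 114 and 26.2 TPM. Lyz2, the lysozyme of macrophages and granulocytes, had 64.7, 236 and 16.1 TPM. Genes of red pulp macrophages were among those detected. Hmox1, the haem oxygenase gene, had 135, 125 and 39.8 TPM, and Vcam1 had 35.7, 40.6 and 7.04 TPM. Spic, the factor of this cell type, had 5.12, 8.82 and 2.36 TPM. Dendritic cell genes were low. Flt3 had 1.71, 2.72 and 0.569 TPM and Clec9a 2.06, 2.78 and 0.505 TPM, and Bst2 and Ccr9, which other cells share, made up most of the list's sum of 209.8, 327 and 218 TPM. The NK cell list summed to 577, 601 and 509.9 TPM and came mostly from Nkg7, which T cells share. The NK receptor gene Ncr1 had 5.52, 5.77 and 1.08 TPM and Klrb1c (NK1.1) 14.1, 9.26 and 6.55 TPM, so the defining NK genes were far below Nkg7 at 343 ± 4.24 TPM. Ncr1 was lowest in library 3, and so was Klrb1c.

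Erythroid genes showed 2 orders. The globin genes were highest in library 1, with Hbb-bs at 2479, 1172 and 647 TPM and Hba-a1 at 2213, 1187 and 644 TPM. Alas2, the first enzyme of haem synthesis in red cells, had 27.2, 13.8 and 6.15 TPM. The carbonic anhydrase gene Car1 was highest in library 2, at 93.4, 192 and 66.8 TPM, and so was Car2, at 52.5, 96.0 and 35.1 TPM. The erythroid factor genes shared this order, with Klf1 at 8.98, 19.98 and 7.37 TPM and Gata1 at 11.2, 17.3 and 8.57 TPM. The sum of the 4 globin genes relative to Car1 was therefore 85.3, 20.7 and 33.1. Hba-a1 and Hba-a2 transcripts were 99.8% identical over 538 bases, and those of Hbb-bs and Hbb-bt 95.3% over 580, so the levels of the single copies are uncertain. Platelet genes reached at most 5.55 TPM, the level of the chemokine gene Ppbp in library 2, and 7 of 10 stayed under 1 TPM in every library.

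Stromal and endothelial RNA was close to absent. Of the 14 genes, 12 were under 1 TPM in every library, and the chemokine genes Ccl21a and Ccl19 and the collagen-binding gene Lum had 0 counts. Col1a1 had 14, 27 and 6 counts and Cdh5, the junction protein of vessels, 6, 15 and 8 counts. Stab2, a scavenger receptor gene of sinus endothelium, had 1.46, 1.29 and 0.528 TPM. Pecam1 stood apart at 93.8, 63.9 and 85.4 TPM, and it is known to be expressed by leukocytes as well as by vessels.

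**Figure D3:**
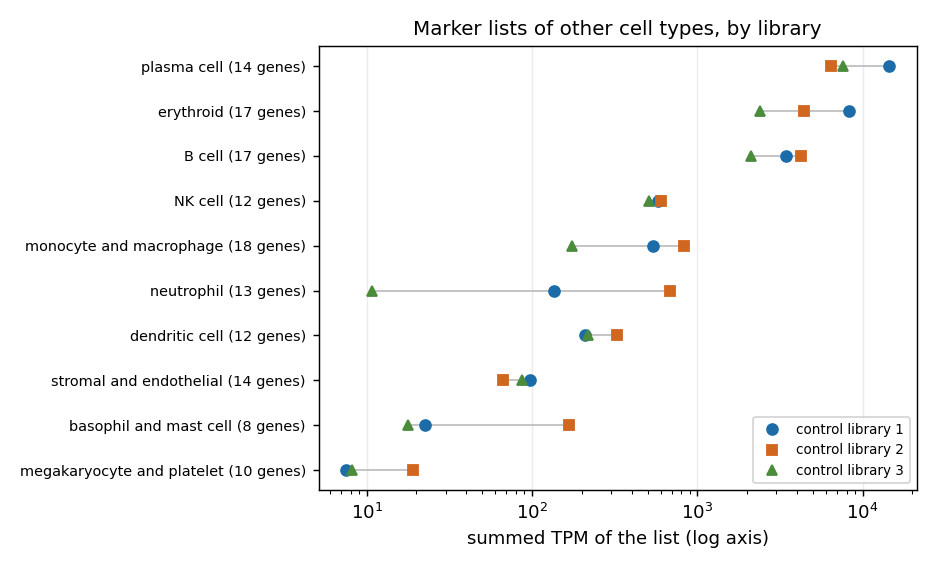
Summed TPM (log axis) of 10 marker lists of other cell types in each control library, with a grey line over the range and the number of genes of each list in brackets. Library 3 is the lowest for the B cell, NK cell, erythroid, macrophage, neutrophil and basophil lists, library 1 is the highest for the plasma cell and erythroid lists, and the neutrophil list runs from 10.8 to 683 TPM.

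Over the whole transcriptome, 8849 genes had a mean of at least 10 CPM, and 599 of them (6.77%) differed by 2-fold or more between the highest and the lowest library. Prpf4b and Cmah lay just inside the limit, at 2.00005 and 2.001, and Atpif1 just outside, at 1.997. A gene that is high in 1 library alone reaches 10 CPM through that library and then has to differ, so counts of such genes over a marker list describe the list and support nothing about it. The biological coefficient of variation, a single value fitted over 13484 genes for spread beyond counting noise, was 0.268. It is not the spread of a typical gene: the median coefficient of variation of the 8849 genes was 13.7% in CPM, counting noise included. The count was 494 without library 1, 167 without library 2 and 257 without library 3, where the ratio is that of the remaining pair. Of the 599 genes, library 2 was the one set apart and low in 217, library 3 low in 146 and high in 98, library 2 high in 61, and library 1 high in 44 and low in 33. Immunoglobulin genes numbered 56 of the 599. Of these, 30 were among the 44 genes high in library 1. Another 16 were low in library 2, 8 were low in library 3 and 2 were high in library 2. Genes low in library 3 also included 11 of the 12 B cell genes and 11 of the 13 macrophage genes with a mean of at least 10 CPM.

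Recent activation genes did not move as one group. Jun, a subunit of the AP-1 factor transcribed soon after a stimulus, had 5.88, 8.42 and 85.4 TPM. Its partner Fos had 16.4, 41.2 and 128 TPM, and Junb had 168, 178 and 606 TPM. All 3 were highest in library 3, and for Junb libraries 1 and 2 lay close together. Dusp1, a phosphatase that ends kinase signals, had 15.9, 30.8 and 69.2 TPM and was also highest in library 3. Nr4a1, a sensitive reporter of T cell receptor signals, was highest in library 2, at 26.6, 74.2 and 40.0 TPM. Egr1, which answers the same signals, had 45.2, 58.3 and 30.7 TPM, and Egr2 had 15.2, 21.7 and 9.84 TPM. Both were highest in library 2, as was the surface marker Cd69 at 33.0, 49.1 and 28.9 TPM. Myc, a growth factor response gene, was even at 109, 128 and 111 TPM, and the NF-kappaB inhibitor gene Nfkbia had 231, 221 and 191 TPM. In CPM, 7 of the 16 genes were highest in library 3 and 9 in library 2, and library 1 led in none. Of the 15 with a mean of at least 10 CPM, 9 differed by 2-fold or more, beside the 6.77% of all genes.

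The inducible HSP70 genes had the widest ranges of this list. Hspa1b had 16, 161 and 481 counts, or 0.422, 4.11 and 31.7 TPM. Hspa1a had 3, 81 and 225 counts, or 0.0747, 1.95 and 14.02 TPM. Library 1 was the lowest and library 3 the highest for both. Library 3 was 70.3-fold above library 1 for Hspa1b in CPM and 175-fold above it for Hspa1a, where library 1 held 3 counts and the 95% counting interval ran from 59.2 to 856. Their transcripts were 99.3% identical over 2197 aligned bases, so the split between them is uncertain. Other chaperone genes, chosen after these values were seen, shared the low end. Hsph1, an HSP110 chaperone, had 25.7, 101 and 153 TPM. Dnajb1, an HSP40 partner of HSP70, had 65.8, 118 and 191 TPM, and the HSP90 gene Hsp90aa1 had 190.1, 401 and 468 TPM. Hspa8, the constitutive HSP70, had 920.4, 2036 and 1877 TPM, with library 2 slightly above library 3. Of 12 such genes 11 were lowest in library 1 in CPM. Their highest value stood in library 3 for 8 and in library 2 for 4. Since they were chosen after their values were seen, these counts describe the choice only. With the length trend described below removed, library 1 was the lowest for 2414 of all 8849 genes of at least 10 CPM.

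The 150 bases before the start are shown for Hspa1a, Hspa1b, Jun and Dusp1. These 4 genes were all lowest in library 1 and highest in library 3 and hold elements known from inducible promoters. As both were grounds for showing them, the windows say nothing about a link between element and library order. Capitals mark the heat shock element GAANNTTC in Hspa1a, Hspa1b and Jun, and the cyclic AMP response element TGACGTCA in Dusp1. The windows are from RefSeq on GRCm38.p6, minus strand, at chr17:34972157-34972306, chr17:34959239-34959388, chr4:95052223-95052372 and chr17:26508473-26508622.
Hspa1a: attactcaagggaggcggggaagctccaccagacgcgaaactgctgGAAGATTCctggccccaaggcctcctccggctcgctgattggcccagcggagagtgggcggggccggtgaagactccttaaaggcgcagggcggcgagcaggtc
Hspa1b: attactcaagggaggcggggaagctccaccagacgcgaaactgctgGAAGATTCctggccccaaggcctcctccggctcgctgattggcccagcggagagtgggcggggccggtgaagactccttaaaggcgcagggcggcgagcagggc
Jun: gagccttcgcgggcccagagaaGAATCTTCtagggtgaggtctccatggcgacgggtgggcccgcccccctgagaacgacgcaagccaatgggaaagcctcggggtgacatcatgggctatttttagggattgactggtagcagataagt
Dusp1: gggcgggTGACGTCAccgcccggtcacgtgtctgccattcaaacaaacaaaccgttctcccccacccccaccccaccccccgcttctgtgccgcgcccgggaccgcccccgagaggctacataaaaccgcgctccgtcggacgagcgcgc

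The heat shock element was found 104 bases before the start in both HSP70 genes and 128 bases before it in Jun. In the whole promoter table, 4.63% of genes held it in a window of this length, on either strand. The cyclic AMP response element was found in 1.58% of genes. Of the 12 recent activation genes with a promoter in the table, 3 held the former and 1 the latter. The 3 were Jun, Hspa1a and Hspa1b, and the windows of the last 2 are almost identical. The AP-1 element TGANTCA was found in 1 of the 12, against 4.96% of all genes. Of 9 heat shock genes chosen after their values were seen, 7 had a promoter in the table. Of these 7, 3 held the heat shock element, namely Hspa1a, Hspa1b and Dnaja1. Whether the element goes with the order of the libraries was not tested.

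Genes of cholesterol metabolism, also chosen after their values were seen, were highest in library 3 in 12 of 12 cases and lowest in library 2 in 10. Sqle, squalene epoxidase, had 6.70, 2.995 and 16.5 TPM, and Cyp51, which removes a methyl group from lanosterol, had 12.2, 7.61 and 30.2 TPM. Both were highest in library 3 and lowest in library 2. The median range of the 12 genes was 2.47-fold in CPM.

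**Figure D4:**
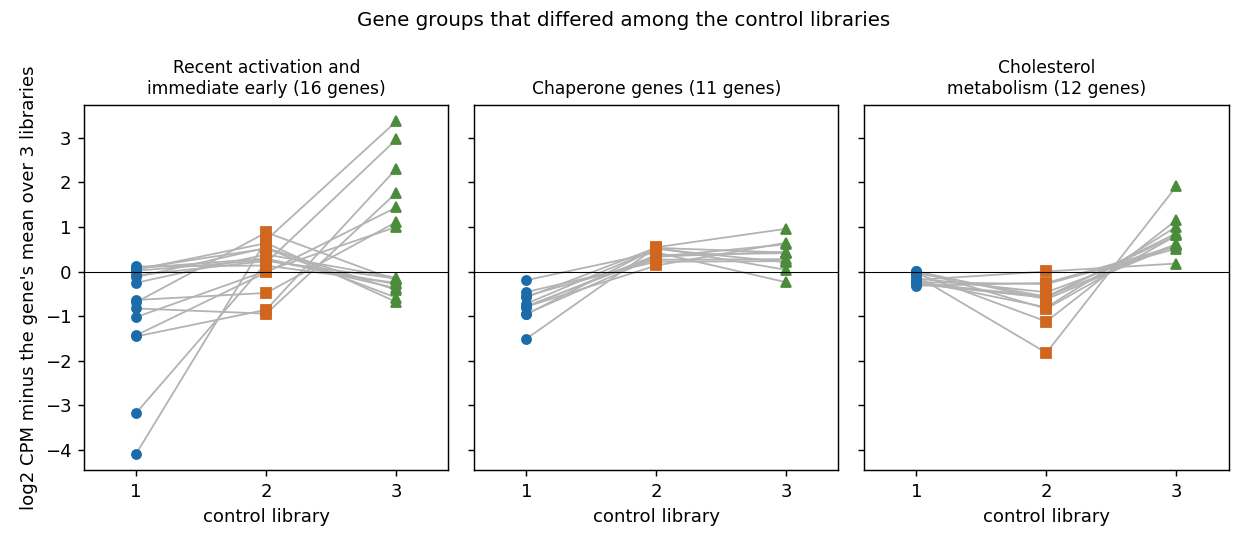
Log2 CPM of each gene minus its own mean over the 3 control libraries, for recent activation genes (left), chaperone genes (middle) and cholesterol genes (right), with 1 grey line per gene; genes with a count of 0 in any library are left out. The chaperone genes are low in library 1, all cholesterol genes peak in library 3, and the recent activation genes split between peaks in libraries 2 and 3.

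Part of the spread among libraries followed gene length. Among 8438 protein-coding genes of at least 10 CPM, sorted into 10 equal groups by merged exon length, the median log2 difference of library 2 from the mean of the others was 0.32 in the shortest group and -0.39 in the longest. Library 3 went the other way, from -0.31 to 0.41, and library 1 had 0.00 in the shortest group and -0.01 in the longest. The shortest group covered genes up to 1946 bases and the longest those from 10194 bases. The genes set low in library 2 had a median length of 8266 bases and those set high in library 3 10022 bases, beside 4607 for all genes tested. Low in library 2 were Peak1, a cytoskeletal kinase-like gene, at 73.2, 10.6 and 109 CPM and the ubiquitin ligase gene Cbl at 111, 28.1 and 235 CPM. Malat1, a long nuclear RNA without a protein product, had 1900.4, 531 and 3146 CPM, again lowest in library 2 and highest in library 3. With the median of each length group removed, an alternative chosen after seeing the data, 441 of 8849 genes (4.98%) had a range of at least 2-fold. Library 3 was the highest for 3093 of the 8849 in that setting. The cholesterol genes then numbered 7 of 12 in place of 9, all 12 highest in library 3. The chaperone genes numbered 8 of 11, as before, and the recent activation genes 10 of 15. As the cholesterol and chaperone genes were chosen after their values were seen, their counts describe that choice only.

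**Figure D5:**
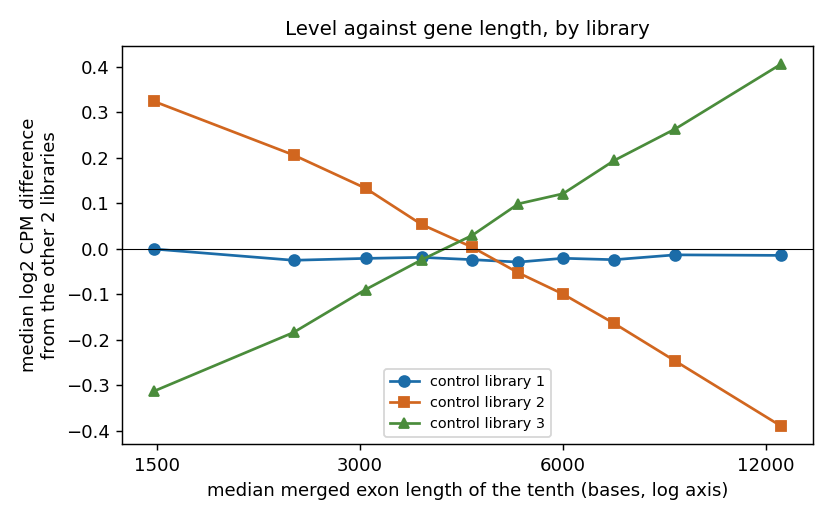
Median log2 CPM difference of each control library from the mean of the other 2 (vertical axis) against the median merged exon length (log axis) of 10 equal groups of protein-coding genes. The line of library 2 falls from 0.32 to -0.39, that of library 3 rises from -0.31 to 0.41, and that of library 1 is flat.

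The 15 genes with the widest ranges joined such cell type genes with others whose counting is uncertain. S100a9, S100a8, Ngp, Prss34, Lyz2 and Hspa1b were among them, and so was the kappa variable segment Igkv14-126, at 5.48, 52.7 and 2.41 CPM. Gm20716, a predicted gene that overlaps Adnp and Dpm1 on the same strand, had 0, 3579 and 1241 counts. Adnp itself had 7220, 3653 and 2388 counts. Gm28036, which overlaps Cpne1, Rbm12 and Nfs1, had 2380, 1654 and 28 counts, and Gm21982, which overlaps Rbm42 and Haus5, had 1904, 1793 and 43 counts. Evi2b had 675, 5879 and 141 counts while the overlapping Evi2 had 5275, 1081 and 2435, so Evi2b was highest and Evi2 lowest in library 2. Reads in shared exons can be given to either gene, so the levels of such pairs are uncertain. Slc15a2, a peptide transporter gene, had 22, 3569 and 577 counts and overlapped no gene on its strand. Xkr6, which had 71, 2275 and 30 counts, Gm4759 and Gm15446 completed the 15.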

How the data were processed

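Whole-number counts per gene were deposited by the authors, who aligned 150 bp paired-end reads with HISAT2 2.2.0 and quantified them with StringTie. The processing notes name mm10, the study's methods name a human build, and the use of strand and the step from coverage to counts are not given in the sources used here. From the deposited counts of the 3 control columns, CPM were computed with TMM factors from edgeR 4.0.16 (1.02, 1.01 and 0.971) over 42548 annotated genes. Another 884 listed names without an annotated identifier, which held 0.136, 0.149 and 0.138% of the counts, were left out. TPM used merged exon lengths of GENCODE M21 (GRCm38). No test was run, since the 3 libraries form 1 group; 2 genes are said to differ where their ranges over libraries do not overlap. The spread was read over genes with a mean of at least 10 CPM, with a limit of 2-fold, and the coefficient of variation from edgeR was checked on simulated counts. Genes were named as members of 28 lists (374 of 377 symbols matched), as the 20 most abundant protein-coding genes (also without mitochondrial and translation genes), as the 15 with the widest ranges and as transcription factors or receptors of the lists. Other genes, among them the chaperone and cholesterol genes, were named after their values were seen. The lists and members were chosen with earlier results of these data known. Library 3 held less than the depth of the others, 16645570 counts against 37079690 and 36460971, so its rare genes are the least precise, and intervals cover counting error only. Alternatives were other scalings, lengths, floors, fold limits and each library left out. Some members of the lists are counted in the sums and not reported by name here.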

Additional observations from a re-analysis of the deposited data

How the results depend on the processing

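The level of Cd4 relative to Cd8a stayed below 1 under every setting tried. It was 0.781 with the longest transcript as gene length, against 0.6997 with merged exons, and 0.673 to 0.714 with 1 library left out. The ratio of the naive to the effector sum was 2.71 without the highest gene of each list, against 3.11, and 2.93 to 3.27 with 1 library left out. The S phase sum was 849.7 TPM with immunoglobulin, T cell receptor, globin and mitochondrial genes out of the total and 530.3 TPM without its highest gene, Pcna, against 718 TPM. The G2 and mitosis sum of 172 TPM ran from 141 to 204 TPM with 1 library left out. The number of genes with a 2-fold range, 599, was 2113 with a floor of 1 CPM, 6357 with a floor of 1 count in any library and 2156 with a limit of 1.5-fold. It ran from 167 to 494 with 1 library left out, with 167 without library 2 and 257 without library 3. It was 575 by total counts, 614 with DESeq2 1.42.0 size factors, 503 for protein-coding genes and 441 with the length trend removed, a setting chosen after seeing the data. Of these values for whole lists and comparisons, 32 moved by less than the spread between libraries or 1.5 times and 9 moved by more. Of the values for single lists, genes or ratios, 143 and 47 did so. Leaving out 1 of 3 libraries cannot move a mean list sum or ratio by as much as the SD of the 3. A change of the TPM total cannot move a ratio at all. Such values fall among the unmoved whatever the data, so the tallies are no measure of robustness. The cause of the changes was not tested. No paired analysis was possible because the values come from 1 group and from no test. Genes under the limit that a count of 0 allows, which is highest in library 3, cannot be ordered at this depth.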
